A study of Mus musculus with 12 samples.

Results

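Glucose that enters a blood-forming cell is phosphorylated, split by glycolysis to pyruvate, and either exported as lactate or passed to the mitochondria, while a branch through the pentose phosphate pathway yields NADPH and ribose. Here 40 genes of this network were followed in lineage-negative bone marrow of mice: 3 glucose transporters, 2 lactate transporters, 3 hexokinases, 9 genes of upper glycolysis, 5 of lower glycolysis, 2 lactate dehydrogenase subunits, 5 genes that control pyruvate entry into mitochondria, 3 oxidative and 4 non-oxidative pentose phosphate enzymes, 3 glycogen enzymes and the regulator Hif1a. They were a list of symbols found in the count table by Ensembl identifier. The list was chosen with earlier results of these data known, so it is not independent of the values below. Positions below are those of the GENCODE M21 annotation of GRCm38. All 40 were among the 31060 gene rows, and all 40 passed the low count filter that left 15630 genes to test.

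Total RNA of lineage-negative bone marrow cells, the fraction left when cells with surface markers of mature blood lineages are removed, was sequenced from C57BL/6 mice of 4 genotypes. The groups were wild type (WT, n = 3 libraries), Tet2+/- (n = 3), Ins2Akita/+ (called Akita here, n = 2) and Tet2+/-;Ins2Akita/+ (called double heterozygotes, n = 3). Tet2 encodes an enzyme that oxidises methylated cytosine and is often mutated in clonal haematopoiesis, and the Akita allele of Ins2 encodes a misfolding proinsulin that damages pancreatic beta cells and raises blood glucose. The labels give neither the age or sex of the mice, nor a blood glucose value, nor the kind of Tet2 allele, and they do not say whether libraries of a group came from separate animals or pools, so that p-values measure only the spread between these libraries. A double heterozygote library numbered 4 was not analysed here.

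As background, glycolysis is the main source of ATP in neutrophils and their late precursors, which hold few mitochondria, and these cells also store glycogen and use NADPH from the pentose phosphate pathway for their oxidative burst. Long-term blood stem cells are likewise known for a glycolytic metabolism under control of the hypoxia-inducible factor HIF-1, whose oxygen-regulated subunit is the product of Hif1a. Many glycolytic genes are known HIF-1 targets, and glucose-6-phosphate dehydrogenase, the product of G6pdx, sets the rate of the oxidative pentose phosphate branch.

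The libraries held 14814409 to 22600405 counts. Tet2 itself, read as a check of the labels, was at 91.2, 128 and 45.1 CPM (counts normalised to library size with TMM factors) in WT libraries 1, 2 and 3. It was at 19.0, 18.5 and 19.3 CPM in Tet2+/-, at 66.5, 108 and 34.2 CPM in the double heterozygotes, and at 131 and 107 CPM in the Akita libraries. The Tet2+/- libraries thus lay below every other library, while the libraries labelled double heterozygote overlapped WT, so that Tet2 RNA did not tell them from WT; directions drawn from these libraries rest on their label. The 3 libraries numbered 3 stood apart from the other 8: mitochondrial genes took 3.43 to 9.76% of their counts against 1.36 to 1.94%, and results are given with and without them below. Summed over 16 markers of maturing neutrophils, none at 0 in any library, the level was 52703 to 79088 CPM in the double heterozygotes, 2503 to 26688 CPM in WT, 3387 to 33623 CPM in Tet2+/- and 18361 and 35057 CPM in Akita. These maturing neutrophil markers were thus higher in each double heterozygote library than in any other library. In contrast, sums over 5 neutrophil primary granule markers overlapped (7281 to 13584 CPM against 604 to 11646 CPM). Sums over 8 dendritic cell markers (286 to 348 CPM against 459 to 1152 CPM) and 11 B lineage markers (62.9 to 135 CPM against 174 to 336 CPM) lay below those of all other libraries, and sums over 8 monocyte and macrophage markers overlapped (816 to 1646 CPM against 166 to 1428 CPM).

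In the double heterozygotes the 40 genes together took 1.15, 1.37 and 1.09% of all counts in libraries 1, 2 and 3. They took 0.875, 0.972 and 0.714% in WT, 0.981, 0.893 and 0.637% in Tet2+/- and 1.01 and 0.843% in Akita. The double heterozygotes therefore lay above every other library, and the libraries numbered 3 were the lowest of WT and of Tet2+/-. In bulk RNA, more cells of a type that expresses these genes and more of their RNA per cell cannot be told apart, and the maturing neutrophil markers moved with this share; their part in it was not tested.

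**Figure D1:**
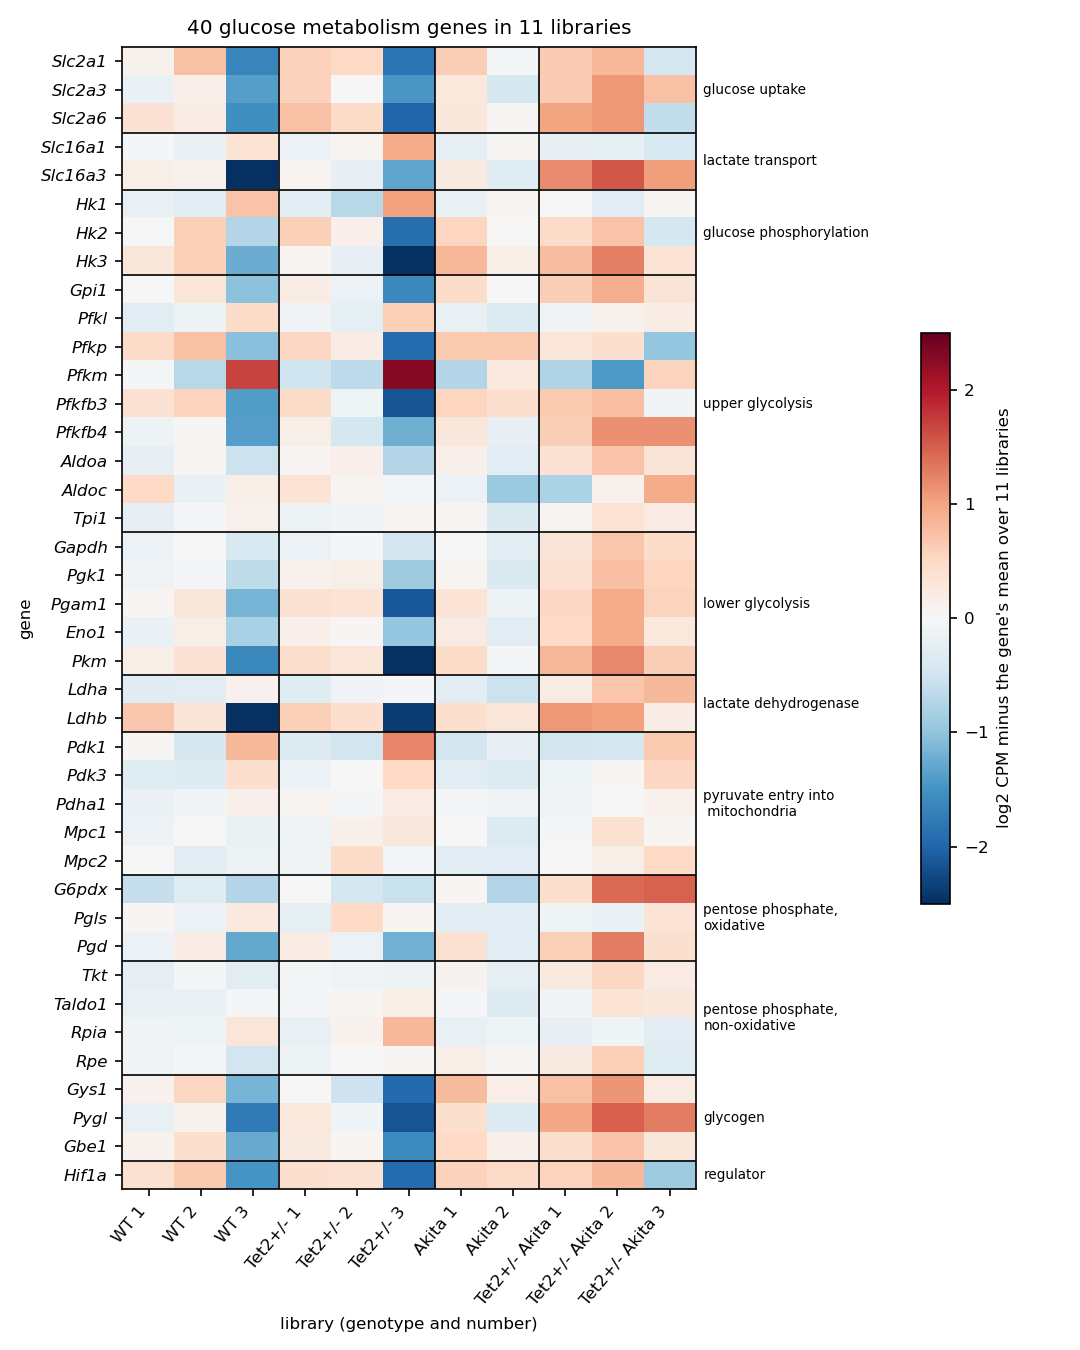
Rows are the 40 genes in order of their step and columns the 11 libraries by genotype and number; colour is log2 CPM minus the mean of that gene over 11 libraries, and colours end at 2.5 in both directions. The 3 double heterozygote columns are red over most of lower glycolysis, G6pdx, Pgd and glycogen, and the columns of WT 3 and Tet2+/- 3 are blue over most rows, with Pfkm and Hk1 red.

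Promoter sequence is shown for 5 genes whose levels differ in how they separate the double heterozygotes. Of the lactate transporters, Slc16a3 was higher there than in all other libraries. Slc16a1 was lower there than in WT and Tet2+/- but overlapped Akita. Pfkfb4, G6pdx and Pygl are the upper glycolysis, pentose phosphate and glycogen genes with the smallest p in their step. Each sequence is the 250 bases before the RefSeq start of its gene on build GRCm38.p6, read 5′ to 3′ on the strand of the gene. The positions are chr11:120948817-120949066 (plus strand) for Slc16a3, chr3:104638414-104638663 (plus) for Slc16a1, chr9:108991652-108991901 (plus) for Pfkfb4, chrX:74428881-74429130 (minus) for G6pdx and chr12:70227684-70227933 (minus) for Pygl. Capitals mark the core of the HIF-1 binding motif, ACGTG or GCGTG, on either strand.
Slc16a3: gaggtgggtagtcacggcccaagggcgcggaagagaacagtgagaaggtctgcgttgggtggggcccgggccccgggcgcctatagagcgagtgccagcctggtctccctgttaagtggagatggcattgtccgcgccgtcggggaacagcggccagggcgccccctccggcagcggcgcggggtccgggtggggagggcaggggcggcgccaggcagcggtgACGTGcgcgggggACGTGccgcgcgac
Slc16a1: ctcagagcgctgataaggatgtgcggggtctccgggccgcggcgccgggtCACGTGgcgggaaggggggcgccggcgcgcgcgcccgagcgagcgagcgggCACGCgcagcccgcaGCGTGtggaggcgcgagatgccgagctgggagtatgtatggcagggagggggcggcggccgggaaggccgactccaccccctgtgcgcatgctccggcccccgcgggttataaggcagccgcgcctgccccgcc
Pfkfb4: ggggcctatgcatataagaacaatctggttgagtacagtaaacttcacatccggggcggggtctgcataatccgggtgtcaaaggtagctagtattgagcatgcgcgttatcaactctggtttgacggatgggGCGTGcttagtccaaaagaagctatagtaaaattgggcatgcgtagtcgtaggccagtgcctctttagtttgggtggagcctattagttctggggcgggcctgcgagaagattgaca
G6pdx: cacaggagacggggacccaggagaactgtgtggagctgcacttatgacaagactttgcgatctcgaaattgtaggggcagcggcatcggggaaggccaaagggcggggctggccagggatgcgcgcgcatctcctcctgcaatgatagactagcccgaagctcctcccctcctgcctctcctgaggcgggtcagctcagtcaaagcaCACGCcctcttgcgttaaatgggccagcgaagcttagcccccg
Pygl: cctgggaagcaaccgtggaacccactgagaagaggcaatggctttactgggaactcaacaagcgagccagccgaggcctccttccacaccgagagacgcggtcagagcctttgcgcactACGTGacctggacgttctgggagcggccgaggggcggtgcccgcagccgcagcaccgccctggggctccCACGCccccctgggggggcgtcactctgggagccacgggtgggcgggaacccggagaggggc
The core occurs 2 times before Slc16a3, 4 times before Slc16a1 (a pair of them overlapping, one on each strand, in CACGTG), 1 time before Pfkfb4, 1 time before G6pdx and 2 times before Pygl. Both lactate transporters hold it, and a part of HIF-1 in their levels was not tested. Among all 32851 RefSeq windows of this length, 38.6% held the core, against 77.78% of 54 windows of the 40 genes, and it was found before 34 of the 39 genes with an entry. The windows of the listed genes were also richer in G and C, with a median of 60.8% against 52.4%. The letters GAGGAA, the core of the site of the myeloid factor PU.1, were in none of the 5 windows, and were about as frequent before the listed genes (24.07% of windows) as before all genes (23.25%). A match is a description of the letters and says nothing of binding in these cells.

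The glucose transporter with the highest level per kilobase of exon was Slc2a3 (ENSMUSG00000003153.10, chr6:122727809-122801640, minus strand; 38.7 CPM per kilobase on average), which encodes the high-affinity carrier GLUT3. It was at 221, 268 and 94.9 CPM in WT, 366, 245 and 90.2 CPM in Tet2+/-, 296 and 187 CPM in the Akita libraries, and 382, 523 and 412 CPM in the double heterozygotes. Each double heterozygote library was thus above all 8 others, with group means of 439 ± 74.4 CPM (SD, n = 3) against 195 ± 89.7 CPM (SD, n = 3) in WT. The difference from WT was 1.17 ± 0.51 on the log2 scale (± SE) and did not pass the test (edgeR's quasi-likelihood test, Benjamini-Hochberg adjusted p = 0.537). Slc2a1, which encodes the common carrier GLUT1, ranged from 16.7 to 106 CPM with its lowest values in the libraries numbered 3 of WT and Tet2+/-, and Slc2a6, which encodes the lysosomal carrier GLUT6, from 8.79 to 74.9 CPM, and both overlapped between WT and the double heterozygotes. Without the libraries numbered 3, Slc2a6 rose in the double heterozygotes against WT by 0.76 ± 0.15 (log2 ± SE; edgeR adjusted p = 0.0409).

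The 2 lactate transporters differed from WT and Tet2+/- in opposite directions. Slc16a3 (ENSMUSG00000025161.16, chr11:120948480-120960868, plus strand) encodes MCT4, the carrier through which glycolytic cells release lactate, and Slc16a1 (ENSMUSG00000032902.1, chr3:104638668-104658462, plus strand) encodes MCT1, a carrier that works in both directions. Slc16a3 was at 52.0, 50.6 and 8.23 CPM in WT, 49.1, 40.3 and 18.6 CPM in Tet2+/-, 54.7 and 37.8 CPM in the Akita libraries, and 107, 138 and 97.3 CPM in the double heterozygotes. All 3 double heterozygote libraries were above the other 8, by 2.05, 2.72 and 11.7 times over the WT library of the same number. The difference from WT was 1.62 ± 0.60 (log2 ± SE; edgeR adjusted p = 0.421), so it did not pass the test with all libraries. It passed without the libraries numbered 3 (1.25 ± 0.20, edgeR adjusted p = 0.0230). Slc16a1 was at 116, 106 and 149.96 CPM in WT, 107, 124 and 226 CPM in Tet2+/-, 102 and 121 CPM in the Akita libraries, and 103, 99.95 and 90.7 CPM in the double heterozygotes. Its double heterozygote values lay below all WT and Tet2+/- libraries but overlapped Akita. The log2 differences were -0.34 ± 0.28 from WT (edgeR adjusted p = 0.835) and -0.64 ± 0.28 from Tet2+/- (edgeR adjusted p = 0.455), and neither passed the test.

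Per kilobase of exon, Slc16a3 made up 27.2, 28.4 and 4.37% of the sum of both carriers in WT, 27.6, 21.3 and 6.41% in Tet2+/-, 30.9 and 20.6% in Akita, and 46.3, 53.4 and 47.2% in the double heterozygotes. The double heterozygote shares did not overlap those of any other library, and library 3 lay between libraries 1 and 2, whereas WT 3 and Tet2+/- 3 had the lowest shares of their groups.

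Of the hexokinases, which trap glucose in the cell by phosphorylation, Hk3 had the highest level per kilobase of exon averaged over the 11 libraries (62.1 CPM per kilobase, against 32.8 for Hk1 and 15.9 for Hk2), though in Tet2+/- its mean was 34.7 CPM per kilobase against 35.8 for Hk1. Hk1 (ENSMUSG00000037012.18, chr10:62268855-62379908, minus strand), which encodes the isoenzyme of most tissues, was at 234, 222 and 432 CPM in WT, 221, 164 and 531 CPM in Tet2+/-, 234 and 279 CPM in the Akita libraries and 264, 222 and 274 CPM in the double heterozygotes. The highest values were those of WT 3 and Tet2+/- 3, and the groups overlapped. Hk3 (ENSMUSG00000025877.14, chr13:55005985-55021385, minus strand), an isoenzyme of myeloid cells, was at 229, 284 and 79.1 CPM in WT, 194, 163 and 26.2 CPM in Tet2+/-, 333 and 206 CPM in the Akita libraries, and 319.7, 446 and 237 CPM in the double heterozygotes. Here WT 3 and Tet2+/- 3 were the lowest, and the double heterozygotes were above all Tet2+/- libraries but overlapped WT. The log2 differences were 0.76 ± 0.67 from WT and 1.39 ± 0.67 from Tet2+/- (edgeR adjusted p = 0.843 and 0.489). Without the libraries numbered 3, Hk3 rose against Tet2+/- by 1.10 ± 0.26 (log2 ± SE; edgeR adjusted p = 0.0397). Per kilobase, Hk3 made up 60.1 to 71.0% of hexokinase RNA in the double heterozygotes, 52.6 to 65.3% in the other libraries numbered 1 and 2, and 26.6 and 9.72% in WT 3 and Tet2+/- 3, where Hk1 made up 62.7 and 85.0%. Hk2, which encodes an inducible isoenzyme, ranged from 23.05 to 139.8 CPM without separating the groups.

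**Figure D2:**
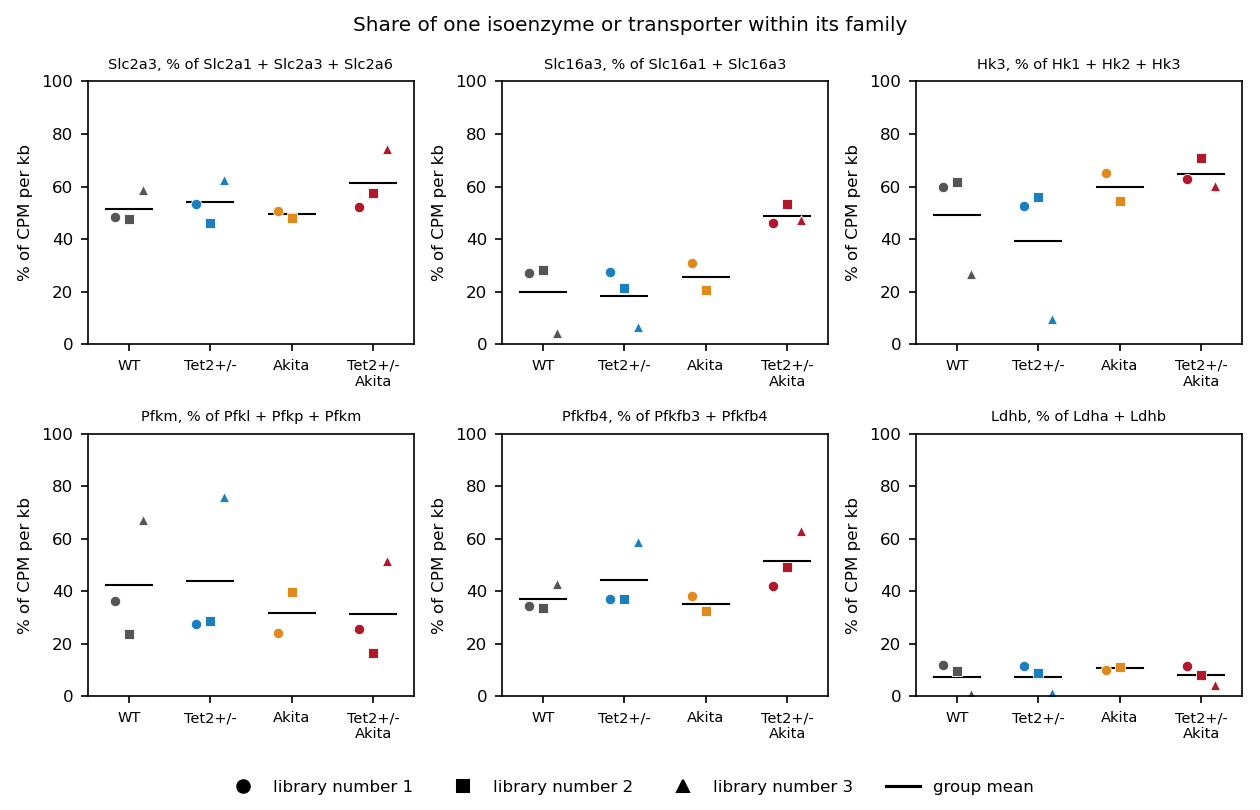
Each panel gives the share of a gene in the summed CPM per kilobase of its family, in percent, for 11 libraries (points; shape gives the library number and lines the group means). The Slc16a3 share is at 46.3 to 53.4% in the double heterozygotes and at most 30.9% in the others, while the Hk3, Pfkm and Ldhb shares separate WT 3 and Tet2+/- 3 from the rest.

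In upper glycolysis the differences were uneven. Pfkfb4 (ENSMUSG00000025648.17, chr9:108991778-109032228, plus strand), which encodes an enzyme that makes and removes fructose 2,6-bisphosphate, the activator of phosphofructokinase, was at 38.6, 43.0 and 16.3 CPM in WT, 46.7, 31.3 and 18.2 CPM in Tet2+/-, 51.3 and 36.7 CPM in the Akita libraries, and 65.2, 93.7 and 93.7 CPM in the double heterozygotes. The 3 double heterozygote libraries lay above the other 8. The log2 difference was 1.37 ± 0.42 from WT (edgeR unadjusted p = 0.00867, adjusted p = 0.305) and 1.39 ± 0.42 from Tet2+/- (edgeR adjusted p = 0.243). Against Tet2+/-, Pfkfb4 rose with the library number as a block (1.54 ± 0.36, edgeR adjusted p = 0.0484) and without the libraries numbered 3 (1.02 ± 0.25, edgeR adjusted p = 0.0477). The related Pfkfb3 overlapped between all groups (19.7 to 149 CPM).

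Gpi1 (ENSMUSG00000036427.5, chr7:34201330-34230336, minus strand), which encodes the isomerase of the step after hexokinase, averaged 186 CPM per kilobase of exon over the 11 libraries. It was at 1106, 1347 and 538 CPM in WT, 1249, 991 and 356 CPM in Tet2+/-, 1492 and 1082 CPM in the Akita libraries, and 1662, 2041 and 1358 CPM in the double heterozygotes. The double heterozygotes lay above WT and Tet2+/- and overlapped Akita (log2 difference from WT 0.76 ± 0.46, edgeR adjusted p = 0.759). Aldoa, the main aldolase gene of these cells, was at 652, 833 and 642 CPM in the double heterozygotes and 306 to 558 CPM in the other 8 libraries, which did not overlap. Tpi1, which encodes triosephosphate isomerase, was at 294 to 354 CPM against 216 to 299 CPM, which did overlap. Aldoc, which encodes the aldolase of the brain, was at 0.624 to 2.54 CPM and its values carry few counts.

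Levels of 2 phosphofructokinase subunits, Pfkm and Pfkp, differed in the libraries numbered 3. Pfkm, which encodes the muscle subunit, was at 143 and 216 CPM in WT 3 and Tet2+/- 3 and 65.4 CPM in double heterozygote library 3, against 16.5 to 52.9 CPM in the other 8 libraries. Pfkp, which encodes the platelet subunit, was at 60.9, 32.8 and 64.1 CPM in the libraries numbered 3, against 142 to 208 CPM in the others. Pfkl, which encodes the liver subunit, spanned 62.8 to 121 CPM. The double heterozygotes did not overlap Akita for Pfkl, where they were higher, or for Pfkp, where they were lower. Counts of Pfkm and Pfkp are uncertain, since the use of strand in counting is not given. Senp1 and Pitrm1 overlap their gene spans on the opposite strand and hold 117 and 67.8% as many counts.

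Lower glycolysis, from glyceraldehyde-3-phosphate to pyruvate, was the step where the most genes separated the groups: all 5 genes (Gapdh, Pgk1, Pgam1, Eno1 and Pkm) were higher in each double heterozygote library than in any of the other 8, as were 5.04% of all genes. Gapdh (ENSMUSG00000057666.18, chr6:125161715-125166467, minus strand) encodes glyceraldehyde-3-phosphate dehydrogenase and is often used as a reference gene. It was at 423, 464 and 358 CPM in WT, 425, 459 and 340.3 CPM in Tet2+/-, 468 and 384 CPM in the Akita libraries, and 582, 758 and 646 CPM in the double heterozygotes. The libraries numbered 3 of WT and Tet2+/- were only slightly below the others for this gene, so that its spread was small. The log2 difference was 0.67 ± 0.20 from WT and 0.70 ± 0.20 from Tet2+/- (edgeR adjusted p = 0.293 and 0.227). Against Tet2+/-, Gapdh rose with the block (0.71 ± 0.16, edgeR adjusted p = 0.0430), and DESeq2 called it against WT (adjusted p = 0.0439) and Tet2+/- (adjusted p = 0.0315).

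Pkm (ENSMUSG00000032294.16, chr9:59656368-59679375, plus strand), which encodes the pyruvate kinase that ends glycolysis, averaged 206 CPM per kilobase of exon over the 11 libraries. It was at 933, 1083 and 278 CPM in WT, 1142, 1040.1 and 131 CPM in Tet2+/-, 1159 and 822 CPM in the Akita libraries, and 1503, 1955 and 1293 CPM in the double heterozygotes. The lowest values were those of WT 3 and Tet2+/- 3, which widened the spread: the log2 difference from WT was 1.05 ± 0.70 (edgeR adjusted p = 0.784). Against the WT library of the same number Pkm was 1.61, 1.80 and 4.66 times as high. Pgk1, Pgam1 and Eno1, which encode phosphoglycerate kinase, phosphoglycerate mutase and enolase, differed from WT by 0.78 ± 0.30, 0.83 ± 0.57 and 0.82 ± 0.35 (log2 ± SE; edgeR adjusted p = 0.447, 0.794 and 0.529).

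Ldha (ENSMUSG00000063229.15, chr7:46841475-46855627, plus strand), which encodes the lactate dehydrogenase subunit that favours lactate formation, was at 393, 408 and 527 CPM in WT, 394, 463 and 469.5 CPM in Tet2+/-, 403 and 335 CPM in the Akita libraries, and 564, 789 and 853 CPM in the double heterozygotes. The double heterozygotes lay above all others, and WT 3 and Tet2+/- 3 were the highest of their groups. The log2 differences were 0.73 ± 0.22 from WT, 0.73 ± 0.22 from Tet2+/- and 0.99 ± 0.25 from Akita (edgeR adjusted p = 0.284, 0.240 and 0.350). DESeq2 called all 3 of these (adjusted p = 0.0324, 0.0296 and 0.00644). Ldhb, which encodes the other subunit, was at 2.48 and 3.04 CPM in WT 3 and Tet2+/- 3 and at 18.5 to 34.4 CPM elsewhere, and overlapped between groups.

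**Figure D3:**
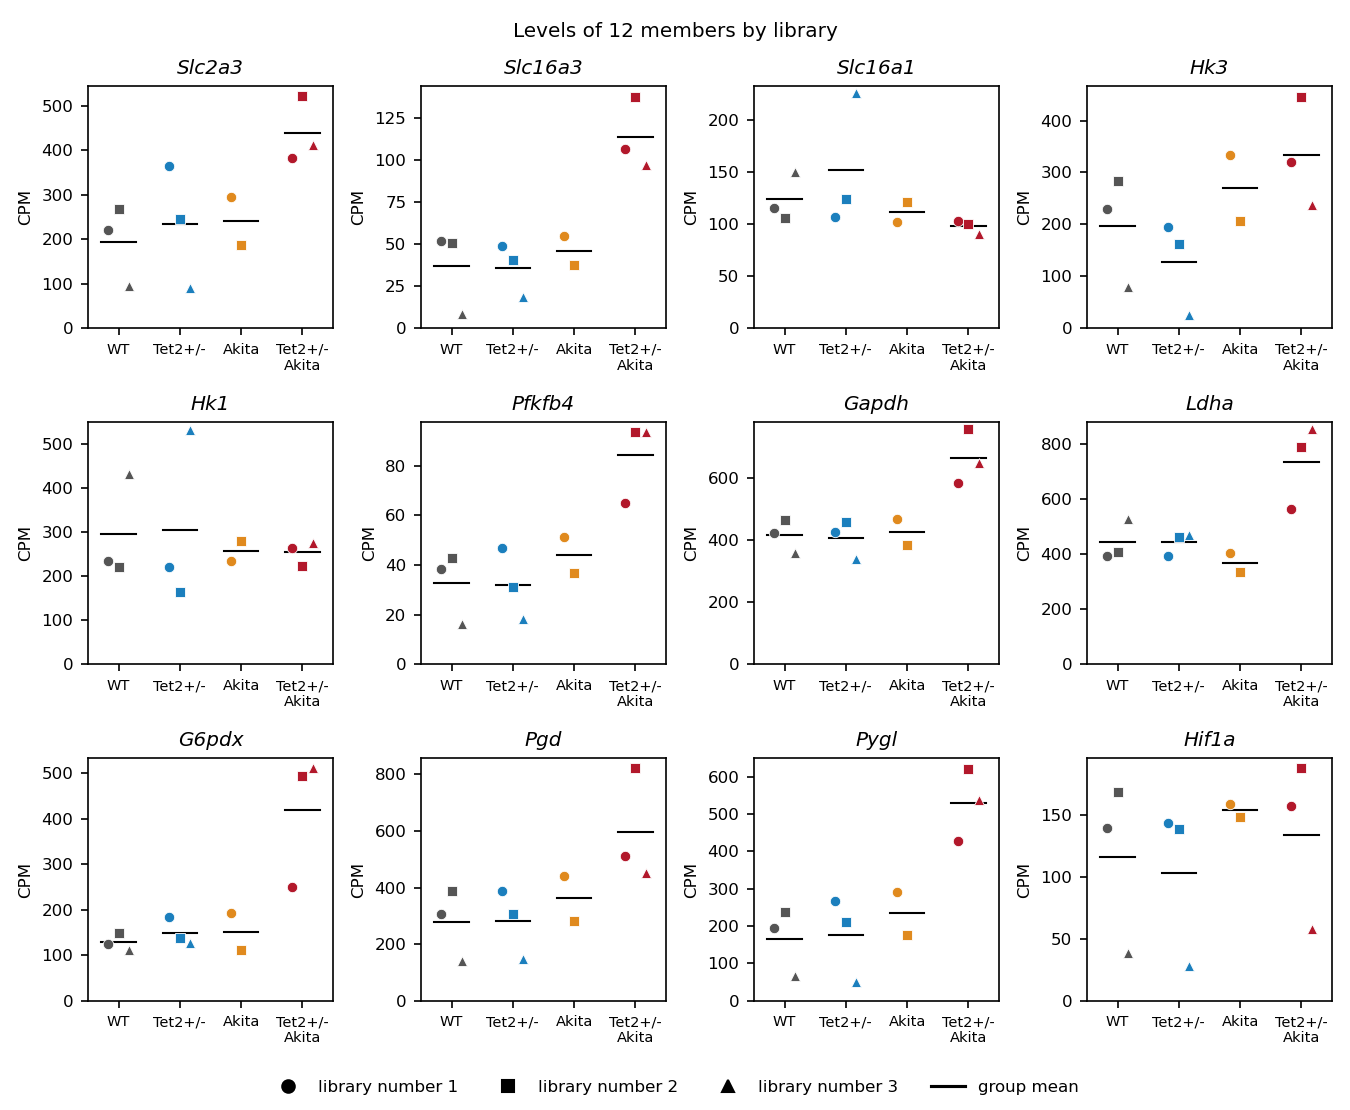
CPM of 12 genes in each library by genotype; shape gives the library number and lines are group means, with the axis starting at 0. Slc2a3, Slc16a3, Pfkfb4, Gapdh, Ldha, G6pdx, Pgd and Pygl have all 3 double heterozygote points above the 8 others, Slc16a1 has them below WT and Tet2+/-, and Hk3, Hk1 and Hif1a overlap.

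The genes of pyruvate entry into mitochondria did not share this pattern. Pdha1 (ENSMUSG00000031299.10, chrX:160122209-160138413, minus strand), which encodes the catalytic subunit of pyruvate dehydrogenase, was at 139, 148 and 169.7 CPM in WT, 163, 150.4 and 179 CPM in Tet2+/-, 149.6 and 146 CPM in the Akita libraries, and 146, 153 and 168 CPM in the double heterozygotes. The double heterozygotes overlapped each other group (log2 difference from WT 0.03 ± 0.17, edgeR adjusted p = 0.982). Mpc2 (ENSMUSG00000026568.6, chr1:165460637-165481214, plus strand), which encodes a subunit of the mitochondrial pyruvate carrier, was at 39.8, 33.1 and 37.0 CPM in WT, 37.6, 55.4 and 38.7 CPM in Tet2+/-, 33.4 and 33.2 CPM in the Akita libraries, and 40.4, 44.4 and 57.0 CPM in the double heterozygotes. It lay above WT in all 3 (log2 difference 0.37 ± 0.21, edgeR adjusted p = 0.736) but overlapped Tet2+/-. Pdk1 and Pdk3, which encode kinases that switch pyruvate dehydrogenase off, had their highest values in the libraries numbered 3 (56.8 to 95.9 CPM against 29.9 to 43.2 CPM), and Mpc1 was at 45.7 to 75.7 CPM with all groups overlapping.

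In the oxidative pentose phosphate branch, G6pdx (ENSMUSG00000031400.10, chrX:74409483-74429194, minus strand) had the smallest p of the 40 genes. It was at 124, 149.8 and 111 CPM in WT, 184, 137 and 126 CPM in Tet2+/-, 192 and 111 CPM in the Akita libraries, and 251, 494 and 513 CPM in the double heterozygotes. The double heterozygotes lay above all others, and libraries 1, 2 and 3 were at 2.03, 3.30 and 4.60 times the WT library of the same number. The log2 difference from WT was 1.71 ± 0.33 (edgeR unadjusted p = 0.000417, adjusted p = 0.104), from Tet2+/- 1.49 ± 0.33 (edgeR adjusted p = 0.113) and from Akita 1.47 ± 0.38 (edgeR adjusted p = 0.369). G6pdx rose against WT and against Tet2+/- with the block (edgeR adjusted p = 0.0466 and 0.0425), in DESeq2 (adjusted p = 0.000196 and 0.00194) and with no low count filter (edgeR adjusted p = 0.0244 and 0.0489). Without the libraries numbered 3 its difference from WT was 1.44 and did not pass. Ikbkg overlaps G6pdx on the opposite strand and holds 16.5% as many counts.

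Pgd (ENSMUSG00000028961.15, chr4:149149991-149166771, minus strand) encodes 6-phosphogluconate dehydrogenase, the other NADPH-forming enzyme of this branch. It was at 307, 386 and 141 CPM in WT, 388, 307 and 147 CPM in Tet2+/-, 440.4 and 282 CPM in the Akita libraries, and 513, 822 and 449.9 CPM in the double heterozygotes. The double heterozygote libraries were above the other 8, the closest being library 3 and Akita 1. The log2 difference was 1.10 ± 0.45 from WT (edgeR adjusted p = 0.503), and with the block Pgd rose against Tet2+/- by 1.18 ± 0.27 (log2 ± SE; edgeR adjusted p = 0.0463). Pgls, which encodes the lactonase between these enzymes, was at 89.5 and 90.7 CPM in Akita, the lowest of the 11 libraries, and at up to 153 CPM elsewhere. Its double heterozygote libraries overlapped WT and Tet2+/- (log2 difference from WT -0.01 ± 0.23).

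Of the non-oxidative branch, which interconverts pentoses and glycolytic intermediates, transketolase, Tkt (ENSMUSG00000021957.6, chr14:30548359-30574720, plus strand), alone separated the double heterozygotes from all other libraries. It was at 979.9, 1104 and 934 CPM in WT, 1126, 1070.2 and 1045 CPM in Tet2+/-, 1218 and 964 CPM in the Akita libraries, and 1346, 1636 and 1319 CPM in the double heterozygotes. The libraries numbered 3 were not low for Tkt, and its spread within groups was small (log2 difference from WT 0.51 ± 0.19, edgeR adjusted p = 0.411). Taldo1 (transaldolase), Rpia and Rpe (the pentose phosphate isomerase and epimerase) differed from WT by 0.33, -0.24 and 0.41 on the log2 scale. For these genes the double heterozygotes overlapped each other group.

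Among the glycogen enzymes, Pygl (ENSMUSG00000021069.16, chr12:70190811-70231488, minus strand), which encodes the phosphorylase that releases glucose 1-phosphate from glycogen, was at 194, 236 and 65.1 CPM in WT, 266, 211 and 49.6 CPM in Tet2+/-, 291 and 176 CPM in the Akita libraries, and 429, 621 and 537 CPM in the double heterozygotes. The 3 double heterozygote libraries were above the other 8, and the lowest were WT 3 and Tet2+/- 3, so that the ratio to WT was 2.21, 2.63 and 8.25 by library number. The log2 difference from WT was 1.68 ± 0.61 (edgeR adjusted p = 0.411). Without the libraries numbered 3, Pygl rose by 1.29 ± 0.27 (log2 ± SE; edgeR adjusted p = 0.0465). Gys1, which encodes glycogen synthase, was at 10.5 to 40.3 CPM in Tet2+/- and 47.1 to 87.0 CPM in the double heterozygotes, and rose between them with the block (1.51 ± 0.28, edgeR adjusted p = 0.0256) and without the libraries numbered 3 (1.17 ± 0.26, edgeR adjusted p = 0.0355) but not with all libraries (1.35 ± 0.53, edgeR adjusted p = 0.392). Ruvbl2 overlaps Gys1 on the opposite strand with 182% as many counts, so counts of Gys1 are uncertain. Gbe1, which encodes the branching enzyme, was at 8.02 to 40.1 CPM.

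Hif1a (ENSMUSG00000021109.13, chr12:73901375-73947530, plus strand) was at 139.9, 169 and 38.4 CPM in WT, 144, 138 and 28.02 CPM in Tet2+/-, 159 and 148 CPM in the Akita libraries, and 157, 188 and 57.8 CPM in the double heterozygotes. Its levels were low in all 3 libraries numbered 3, and the double heterozygotes overlapped each other genotype (log2 difference from WT 0.21 ± 0.68, edgeR adjusted p = 0.967).

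Across the list, the comparison of the double heterozygotes with WT asks what both alleles together do to these genes. By edgeR's test, 0 of 40 genes passed in either direction (adjusted p under 0.05), where 0.0256% of all genes tested were called higher and 0.0192% lower, so that few genes of any kind passed. At an unadjusted p under 0.05, 12 of the 40 were higher and 0 lower, against 5.12% of all genes higher and 3.67% lower. The median log2 difference of the 40 was 0.47, with 33 above 0, against a median of -0.05 over all 15630 genes. By level, 16 of 40 had every double heterozygote library above every WT library, against 9.55% of all genes, and 1 (Slc16a1) had every one below, against 8.57%. By library number, 30 were higher than WT in all 3 pairs (22.2% of all genes) and 3 were lower, namely Slc16a1, Pfkm and Pdk1 (25.7%). DESeq2 called 3 of the 40 higher (Gapdh, Ldha and G6pdx; 1.71% of all genes), the block 1 (G6pdx; 0.921%), and leaving out the libraries numbered 3 gave 3 (Slc2a6, Slc16a3 and Pygl; 1.63%). G6pdx was called by both DESeq2 and the block, and no gene called without the libraries numbered 3 was called by either of those. With no low count filter, edgeR called G6pdx (0.0879% of all genes higher). Summed maturing neutrophil markers set the same 3 libraries above the other 8 (52703 to 79088 CPM against 2503 to 35057 CPM), and their part in these counts was not tested.

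**Figure D4:**
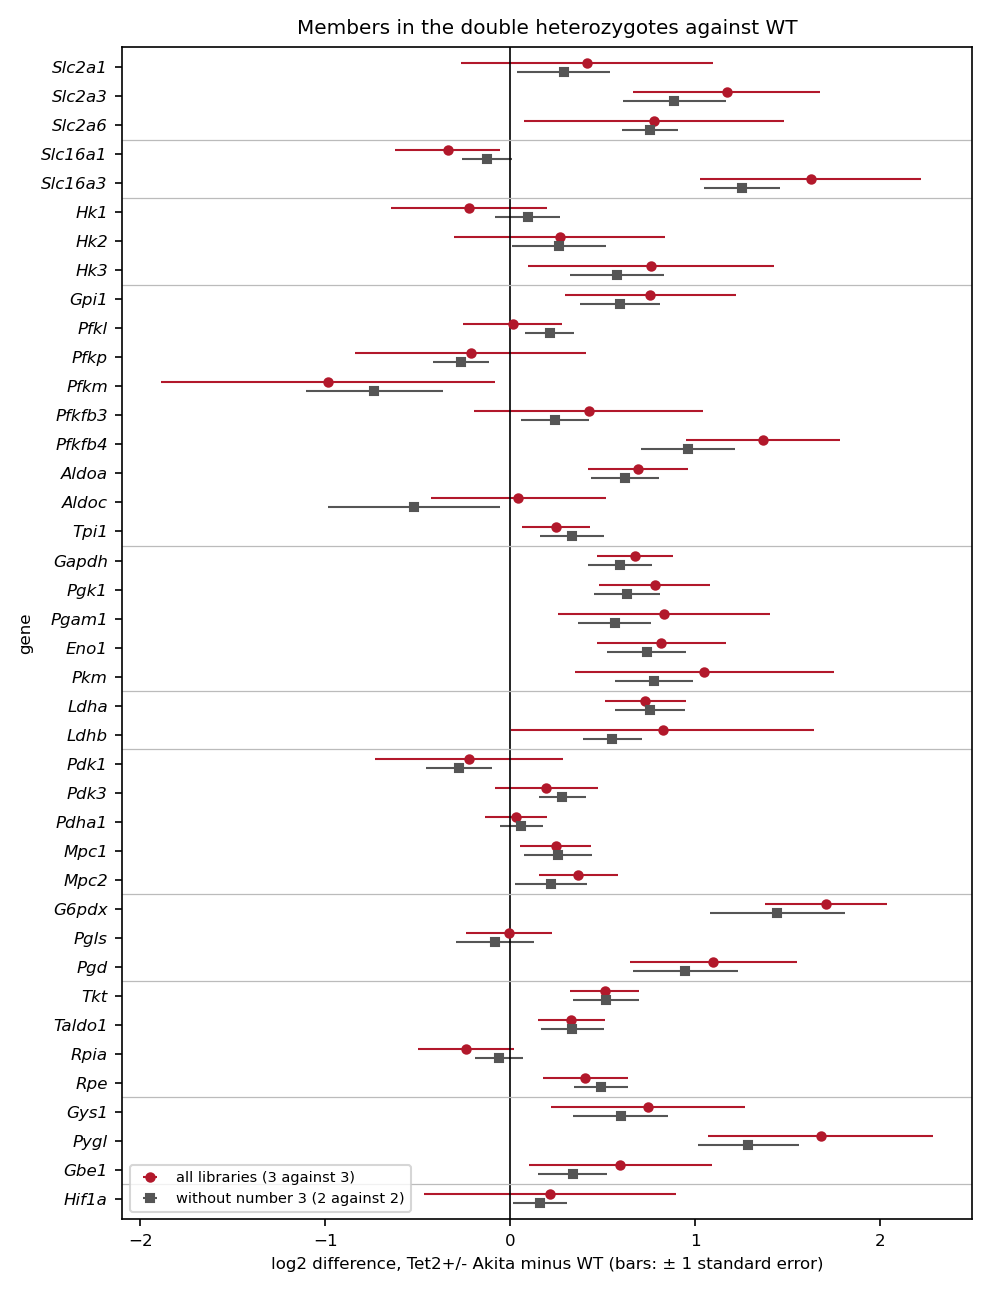
Log2 difference of the double heterozygotes from WT for each of the 40 genes with bars of 1 standard error, with all libraries (red circles, 3 against 3) and without the libraries numbered 3 (grey squares, 2 against 2). Most points lie right of 0 in both, led by G6pdx, Pygl, Slc16a3 and Pfkfb4, the red bars are wider than the grey for most genes, and Pfkm lies farthest left.

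Median log2 differences from WT by step were 0.78 for glucose uptake, 0.64 for lactate transport, 0.27 for glucose phosphorylation, 0.25 for upper glycolysis, 0.82 for lower glycolysis, 0.78 for lactate dehydrogenase, 0.20 for pyruvate entry, 1.10 for oxidative and 0.37 for non-oxidative pentose phosphate genes, and 0.75 for glycogen. Averaged over the genes of a step as log2 CPM centred on the mean of each gene, lower glycolysis was at 0.51, 0.90 and 0.49 in the double heterozygotes, against -0.04, 0.15 and -0.92 in WT, 0.18, 0.16 and -1.42 in Tet2+/- and 0.21 and -0.22 in Akita. Each double heterozygote library was above the others, and in the libraries numbered 3 the gap to WT was widest (0.55, 0.75 and 1.41 by number). Oxidative pentose phosphate genes were at 0.31, 0.84 and 0.74 against -0.59 to 0.05 in the other 8 libraries, and pyruvate entry at -0.14, 0.02 and 0.37 against -0.25 to 0.43. These means describe the list and carry no test.

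**Figure D5:**
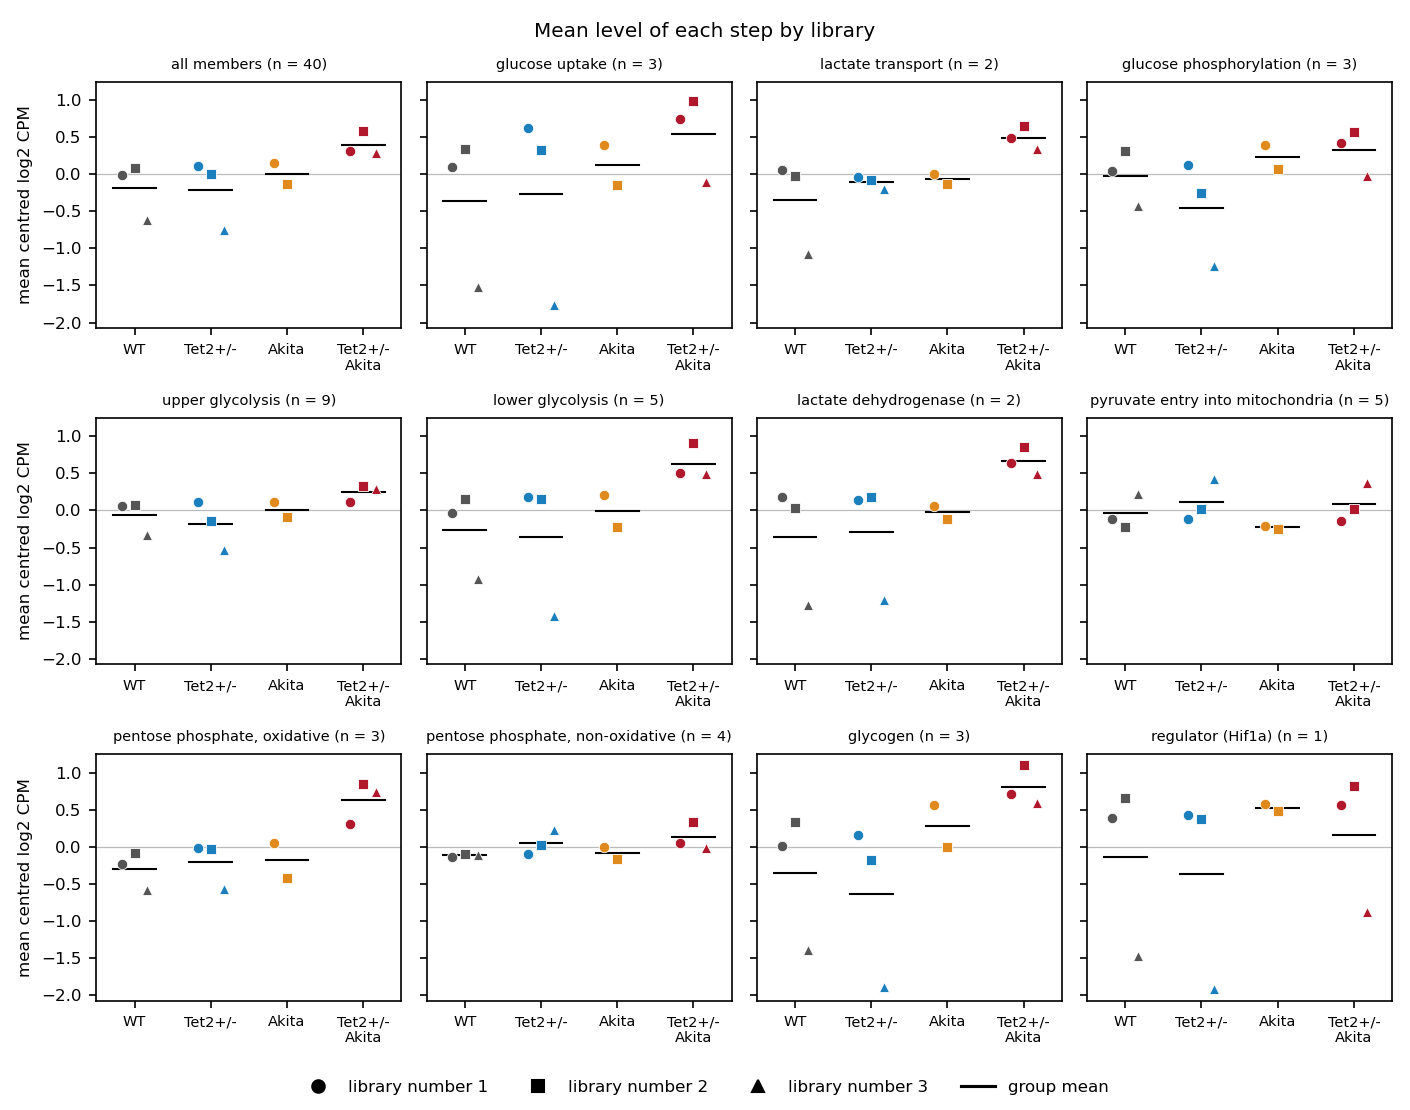
Mean over the genes of each step of log2 CPM centred on each gene, by library and genotype; points are libraries, shape gives the library number and lines are group means. Lower glycolysis, lactate dehydrogenase, lactate transport, oxidative pentose phosphate and glycogen genes have all double heterozygote points above the rest, while pyruvate entry overlaps and WT 3 and Tet2+/- 3 are lowest in glucose uptake, glycogen and lower glycolysis.

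The comparison of the double heterozygotes with Tet2+/- asks what the Akita allele adds in Tet2 heterozygotes. With edgeR, 0 of 40 passed (0.0832% of all genes higher, 0.179% lower). At an unadjusted p under 0.05, 11 were higher (5.9% of all genes) and Slc16a1 lower (4.98%), and the median log2 difference was 0.46 against -0.08 over all genes. In 19 of 40 every double heterozygote library exceeded every Tet2+/- library (8.48% of all genes), and in Slc16a1 every one was below (6.68%). Hk3, Tpi1, Gys1 and Gbe1 were among the 19 and not among the 16 that separated from WT. By library number 25 were higher in all 3 pairs (20.0% of all genes), and Slc16a1, Pfkm and Rpia lower (22.3%). DESeq2 called 3, all higher (Gapdh, Ldha and G6pdx; 1.95% of all genes). With the block 7 rose (Slc16a3, Pfkfb4, Gapdh, Ldha, G6pdx, Pgd and Gys1; 2.83% of all genes), and without the libraries numbered 3 there were 5 (Slc16a3, Hk3, Pfkfb4, Gys1 and Pygl; 3.88%). The genes in both sets were Slc16a3, Pfkfb4 and Gys1. With no low count filter, edgeR called G6pdx (0.12% of all genes higher).

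The comparison with Akita asks what the Tet2 allele adds in Akita mice and rests on 2 Akita libraries. With edgeR, 0 of 40 passed (0.0192% of all genes higher, 0.0192% lower), and at an unadjusted p under 0.05 Gapdh, Ldha and G6pdx were higher (3.59% of all genes) and none lower (3.01%). The median log2 difference was 0.39 against 0.01 over all genes, with 34 of 40 above 0. In 19 of 40 the groups did not overlap with the double heterozygotes higher (16.6% of all genes), and in 1, Pfkp, with them lower (19.9%). Without the libraries numbered 3, Slc2a6 and Slc16a3 rose (0.87 ± 0.15 and 1.41 ± 0.21 on the log2 scale; edgeR adjusted p = 0.0294 and 0.0190; 1.62% of all genes higher), and DESeq2 called Ldha and G6pdx higher (0.8%). All 3 comparisons of the double heterozygotes share those libraries. Against all 8 others at once, 14 of 40 were higher in each double heterozygote library (5.04% of all genes) and 0 lower (3.49%).

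Neither edgeR nor DESeq2 called a gene of the list for either allele alone. For Tet2+/- against WT, 0 of 40 passed edgeR's test (0.0256% of all genes higher, 0.0% lower) and 0 had an unadjusted p under 0.05 (0.979% of all genes higher, 1.15% lower). No gene of the list separated these groups by level (2.07% of all genes higher, 2.18% lower), and the median log2 difference was 0.06. For Akita against WT, 0 of 40 passed (0.0% of all genes in either direction) and 0 had an unadjusted p under 0.05 (0.0896% higher, 0.339% lower). By level Rpe was higher in both Akita libraries than in WT (4.78% of all genes) and Pgls and Rpia lower (6.86%). The median was 0.22, which became -0.01 without the libraries numbered 3, of which Akita has none. Counts of Pgls and Rpe are uncertain. Fam129c overlaps Pgls on the same strand with 20.4% as many counts, and Kansl1l overlaps Rpe on the opposite strand with 28.1%. DESeq2 called 0 of 40 for Tet2+/- (0.192% of all genes higher, 0.096% lower) and 0 for Akita (0.0% in either direction).

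Whether the effect of both alleles exceeds the sum of each was tested as an interaction. With edgeR, 0 of 40 passed (0.0% of all genes in either direction). At an unadjusted p under 0.05 there were 2, both above 0 (1.79% of all genes), Ldha (0.995 ± 0.33 on the log2 scale, edgeR unadjusted p = 0.0129) and G6pdx (1.25 ± 0.48, edgeR unadjusted p = 0.0276), and 0 below (1.65%). The median of the 40 was 0.32 against -0.02 over all genes, with 32 above 0. DESeq2 called 0 of 40 (0.198% of all genes higher, 0.186% lower).

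The libraries numbered 3 shaped the spread of these genes. Against the mean of libraries 1 and 2 of their group, 18 of 40 were lower by more than 1 on the log2 scale in both WT 3 and Tet2+/- 3 (13.9% of all genes), and 5 of these (Slc2a1, Slc2a6, Hk2, Pfkp and Hif1a) also in double heterozygote library 3 (6.52%). Pfkm was higher by more than 1 in all 3 of them (2.03, 2.86 and 1.64 in WT, Tet2+/- and the double heterozygotes), as were 3.99% of all genes. In the double heterozygotes, of the 18, Slc2a3, Pygl, Pkm and Pgam1 stayed within 0.5 of libraries 1 and 2 (-0.12, 0.06, -0.41 and -0.16). The same difference for these genes was -1.86 to -1.34 in WT and -3.05 to -1.73 in Tet2+/-. Slc16a3, Gpi1, Pfkfb4 and Gbe1 also stayed within 0.5 in the double heterozygotes, while Hk3, Pfkfb3, Ldhb, Pgd and Gys1 were at -0.86 to -0.53. The share of all genes that stayed within 0.5 in this way was not counted. Over the same libraries, summed maturing neutrophil markers were at 2503 and 3387 CPM in WT 3 and Tet2+/- 3 and 67436 CPM in double heterozygote library 3, and summed erythroid markers (13 genes) at 5867, 10017 and 3052 CPM. Their part in the levels of these genes was not tested.

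Levels of other genes of these pathways came from a list of 83 that the 40 do not include, of which 71 were tested. For the double heterozygotes against WT, 0 passed edgeR's test. At an unadjusted p under 0.05 there were 5 higher (5.12% of all genes) and 3 lower (3.67%). Their median log2 difference was -0.03, with 30 of 71 above 0. Among those with the smallest p were Pgm2l1 (-0.66 ± 0.20), Gyg (1.14 ± 0.38), Ddit4 (0.63 ± 0.21), Adpgk (1.40 ± 0.50), H6pd (1.02 ± 0.37), Slc37a2 (-1.10 ± 0.43) and Pgam2 (-2.37 ± 0.95), with edgeR adjusted p from 0.295 to 0.477 and values as log2 ± SE. Gyg encodes the primer protein of glycogen, Adpgk an ADP-dependent glucokinase, and H6pd the hexose-6-phosphate dehydrogenase of the endoplasmic reticulum. Adpgk was at 452, 622 and 485 CPM in the double heterozygotes against 83.2 to 349.5 CPM in the other 8 libraries, which did not overlap (5.04% of all genes higher). With the block, H6pd and Gyg rose against Tet2+/- (2.83% of all genes higher). Without the libraries numbered 3, H6pd and Fbp1 rose against Tet2+/- (3.88% of all genes higher), and Pygm and Adm fell (3.83% lower). Among 18 genes of the HIF pathway that include its partner, hydroxylases and targets outside glycolysis, 7 were above 0 against WT, with a median of -0.04.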

How the data were processed

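The authors deposited whole-number read counts per gene for the libraries in a single table with no normalisation, per the file headers and the values. The submitters' processing notes name bcl2fastq, Trimmomatic 0.32, TopHat2 2.1.1 and build GRCm38. The program that made the counts, the annotation release and the strand setting were not given in the sources used here, so counts of overlapping genes are uncertain. Of 31060 identifiers, 30875 match GENCODE M21 names once versions are removed, and 25042 with them. Columns used were those whose name fits 1 sample; 1 further column, with a name of the form of Akita 3, fits none and was left out of every step.

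Tests used edgeR 4.0.16 (R 4.3.3) with filterByExpr, TMM factors and a joint model of the 4 groups (glmQLFit with robust=TRUE, glmQLFTest, two-sided), and Benjamini-Hochberg adjustment over 15630 genes at 0.05. Standard errors were taken as the absolute log2 difference divided by the square root of F. CPM use TMM factors, log2 CPM a prior count of 2, and levels per kilobase the union of exons. The model was run on counts simulated with a common spread for all genes and no effect of library number. That run does not show how the model behaves with the spread of these libraries. Replicates differed by more than sampling noise, with a lowest chi-square per gene of 17.2. Members and lists were chosen with earlier results of these data known. Genes given in every library are, for each of 11 steps, the one with the smallest p for the double heterozygotes against WT and the one with the highest mean CPM. Up to 8 other pathway genes were named by smallest p, leaving out a result that is not reported here, and further genes were named after their values were seen.

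The labels number the libraries without saying what a number stands for. Correlations of same-numbered deviations from group means were 0.485 to 0.791 (WT and Tet2+/-), 0.340 to 0.589 (WT and double heterozygotes) and 0.318 to 0.533 (Tet2+/- and double heterozygotes). Each exceeded 0.1, and numbers were therefore taken to pair the samples of these groups. Akita did not meet this (0.0661 and -0.351 with WT). However, a library 3 far from the others alone puts libraries 1 and 2 on the same side. Unlike-numbered libraries 1 and 2 correlated at 0.510 and 0.691 (WT and Tet2+/-), 0.335 and 0.372 (WT and double heterozygotes) and 0.211 and 0.462 (Tet2+/- and double heterozygotes). These values therefore cannot show that library 1 pairs with 1 rather than with 2. Results by number and with the block rest on that pairing. The alternatives tried were other factors (RLE, upper quartile), DESeq2 1.42.0, voom of limma 3.58.1, no low count filter or a minimum mean of 5 CPM, the number as a block, fits of only the groups compared, fits without the libraries numbered 3, and leaving out each library. Promoter windows come from RefSeq.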

Additional observations from a re-analysis of the deposited data

How the results depend on the processing

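For the 40 genes, each count of called genes and each median log2 difference was recomputed under every alternative, except that the interaction could not be fitted with only the groups compared. The number of the 40 genes called went from 0 to 3 with DESeq2, 1 with no low count filter, 1 with the library number as a replicate block and 3 without the libraries numbered 3 for the double heterozygotes against WT, to 3, 1, 7 and 5 under the same settings against Tet2+/-, and to 2 with DESeq2 and 2 without the libraries numbered 3 against Akita. All called genes of the 40 were higher in the double heterozygotes. Calls over all genes also rose, against WT from 7 to 408, 52, 255 and 519 under these 4 settings. RLE and upper quartile factors, limma voom, a mean of at least 5 CPM, only the groups compared and each library left out gave 0 of the 40 in each comparison run, and leaving out single libraries therefore gave 0 to 0. The cause of these differences was not tested. The median for the interaction moved from 0.32 to 0.73 with the block, which changed no call of the 40 genes beyond those counted above. That of the double heterozygotes against Akita moved from 0.39 to 0.62, and that of Akita against WT from 0.22 to 0.01. Against Akita, 16 genes were higher and 1 lower at an unadjusted p under 0.05 by edgeR with the block, in place of 3 and 0 (14.98% of all genes in place of 6.603%). The block also used the numbers of the Akita libraries, though Akita did not meet the rule for pairing and has no library 3. With each library left out, medians were -0.11 to 0.19 for Tet2+/- against WT, -0.08 to 0.38 for Akita against WT, 0.38 to 0.71 for the double heterozygotes against WT, 0.28 to 0.70 against Tet2+/-, 0.31 to 0.56 against Akita and 0.24 to 0.64 for the interaction; where Akita is left with 1 library, it is assumed to vary like the other groups. Of the values of single genes under the alternatives, 28 newly passed the threshold, 0 stopped passing and 4726 kept their side, where a sign change was counted if both estimates were more than 1 standard error away from 0. Precision is limited by 2 or 3 libraries a group and by genes of few counts such as Aldoc.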

Other observations

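Genes of the HIF pathway outside glycolysis were read beside the list, and as a set they had no test of their own. Ddit4, which encodes an inhibitor of mTORC1, was at 61.8, 64.9 and 67.8 CPM in the double heterozygotes, above the 33.4 to 54.4 CPM of the other 8 libraries. Bnip3, which encodes a mitophagy receptor, was at 9.47, 10.8 and 9.89 CPM in the double heterozygotes against 2.99 to 8.96 CPM, and Egln3, which encodes a HIF prolyl hydroxylase, at 36.6, 44.7 and 35.4 CPM against 6.14 to 34.0 CPM. For neither gene did the double heterozygotes overlap the others. Like Ddit4, both were among the 5.04% of all genes that were higher in each double heterozygote library than in the 8 others. Vegfa, which encodes an angiogenic growth factor, was at 89.7, 97.5 and 42.4 CPM in the double heterozygotes and 21.4 to 98.7 CPM elsewhere, with the lowest values in the libraries numbered 3. Vhl, whose product marks HIF subunits for destruction, was likewise at 20.7 to 27.2 CPM in the libraries numbered 3 and at 62.3 to 79.3 CPM in the others. For Adm and Epas1 the log2 difference from WT was below 0, though the double heterozygotes overlapped the other libraries. Adm, which encodes adrenomedullin, was at 0.200, 0.0497 and 0.697 CPM in the double heterozygotes against 0.242 to 2.14 CPM elsewhere, on few counts. With all libraries Adm differed from WT by -1.42 ± 0.85 on the log2 scale (edgeR adjusted p = 0.749). Without the libraries numbered 3, Adm fell against WT (-3.08 ± 0.63 on the log2 scale, edgeR adjusted p = 0.0419), as did 1.81% of all genes. Epas1, which encodes HIF-2 alpha, was at 3.86, 2.19 and 3.99 CPM in the double heterozygotes against 1.15 to 10.4 CPM elsewhere. The lowest values were those of WT 3 and Tet2+/- 3 (1.15 and 1.88 CPM). Epas1 differed from WT by -0.98 ± 0.69 with all libraries and by -1.62 ± 0.37 without those numbered 3 (edgeR adjusted p = 0.804 and 0.0533). These 7 genes were picked after their values were seen.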
